A study of Homo sapiens with 6 samples.

Results

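The 10 genes described here are regulators and surface markers of the epithelial-mesenchymal transition (EMT): the cadherins CDH1, CDH2, CDH3 and CDH11, the intermediate filament gene VIM, the transcription factors ZEB1, ZEB2, SNAI2 and TWIST1, and the hyaluronan receptor CD44. They were chosen by name, and the estimated counts of all transcripts of each gene were added up. They are 10 of 52992 genes, and 6 of them (CDH2, VIM, ZEB1, ZEB2, SNAI2 and CD44) are among the 11909 genes that averaged 50 counts or more over the 6 libraries, called measured below.

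The cells were J82, an established human bladder cancer line, in 2 versions: tet-ZFP36L1, which overexpresses ZFP36L1 under doxycycline, and tet-control. Each version was sampled without doxycycline (0 h) and after 6 h and 24 h of doxycycline at 1 µg/mL, so both versions received the drug. ZFP36L1 is an RNA-binding protein that attaches to AU-rich elements in the 3' untranslated region (UTR) of mRNAs and promotes their decay. The construct's promoter, the control insert, and whether either version is a single clone are not stated in the labels.

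Each of the 6 groups had 1 library, with 20739025 to 21380480 estimated counts. There is therefore no replicate check, and neither a test nor a p-value. The intervals, at 95%, cover counting error only and hold neither culture-to-culture variation nor the uncertainty of dividing reads among transcripts. ZFP36L1 itself stood at 220.2, 3127 and 3133 CPM (counts per 1000000, TMM-scaled) at 0, 6 and 24 h in tet-ZFP36L1, against 234, 223 and 206 CPM in tet-control. The library of tet-ZFP36L1 after 24 h lay apart from the rest, with a scaling factor of 1.11 where the other libraries had 0.941 to 1.01. It also had 15695 genes with at least 10 counts, where the others had 14515 to 14956. Of the luminal urothelial markers, KRT8 and KRT18 were present in all 6 libraries, at 258 to 753 and 364 to 764 CPM, while the uroplakin gene UPK2 was at 0 in all 6. The 6 basal markers summed to between 0.0496 and 7.21 CPM.

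In EMT, epithelial cells lose cell-cell adhesion held by E-cadherin (CDH1) and gain N-cadherin (CDH2) and vimentin (VIM). The factors ZEB1, ZEB2, SNAI2 (Slug) and TWIST1 repress epithelial genes such as CDH1. CD44 binds hyaluronan outside the cell. Its pre-mRNA holds a block of variable exons that is skipped in the standard isoform and partly kept in variant isoforms, and epithelial cells are known for the variants.

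CD44 lies on GRCh38 chromosome 11, 35138870 to 35232402, plus strand. Its variable exons lie between the fifth and the sixth exon of the standard transcript, CD44-201. The junction that leaves the fifth exon therefore tells the isoforms apart, and it is shown here for CD44-201, for CD44-210 (1 variable exon) and for CD44-209 (3 variable exons). Lower case marks the end of the shared exon and capitals the start of the exon joined to it.
CD44-201: gaatccctgctaccaGAGACCAAGACACAT
CD44-210: gaatccctgctaccaATAGGAATGATGTCA
CD44-209: gaatccctgctaccaATATGGACTCCAGTC

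Among the 10 genes, CD44 alone was called after ZFP36L1 induction, and it was lower at both times. CD44 had 1220, 570 and 528 CPM in tet-ZFP36L1 at 0, 6 and 24 h, against 1047, 1165 and 1073 CPM in tet-control. The induced libraries lay below all the others, and the ratio of tet-control to its own 0 h value was 1.11 at 6 h and 1.03 at 24 h. The ratio to 0 h in tet-ZFP36L1 was 0.467 at 6 h (0.456 to 0.477) and 0.432 at 24 h (0.423 to 0.442). The induction difference takes the change of tet-control from its 0 h level, on log2(CPM + 0.5), off that of tet-ZFP36L1, and a gene was called when it and the line's own change were both at least 1 in the same direction. For CD44 it was -1.25 at 6 h (-1.29 to -1.21) and -1.24 at 24 h (-1.29 to -1.20). Over all measured genes, 2.54% were called lower at 6 h and 4.97% at 24 h. CD44 was thus 1 of 6 measured members called lower at each time, beside 0 called higher, where the background was 0.739% and 2.74%.

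The CD44 call rests on the scale. With the deposited TPM (which divides by transcript length) summed per gene, the induction difference was -1.15 at 6 h and -0.97 at 24 h. The own change was -0.995 and -0.99, just short of 1, and CD44 was not called at either time. In every setting tried, the difference was below 0 at both times.

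**Figure D1:**
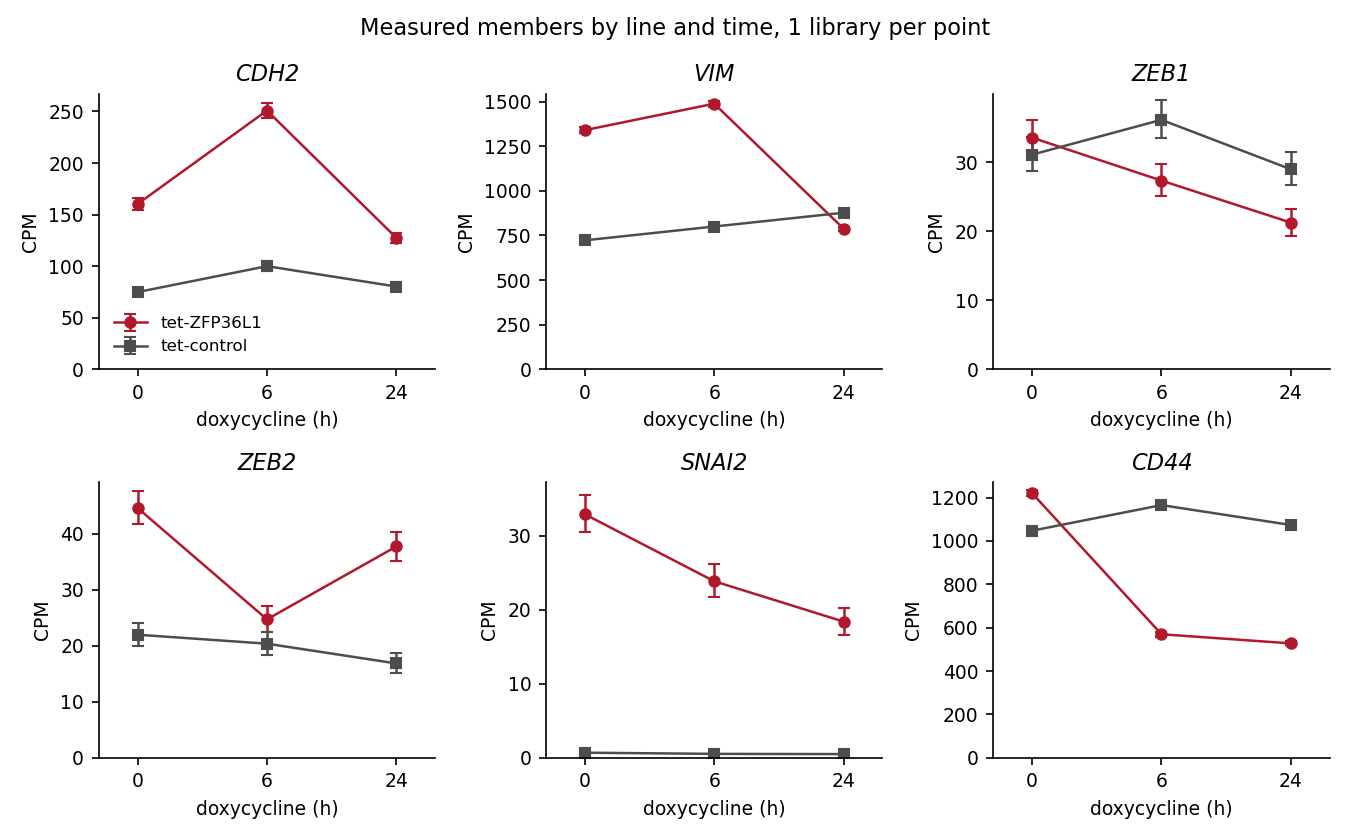
TMM-scaled CPM (y axis, from 0) of the 6 measured members after 0, 6 and 24 h of doxycycline (x axis, not to scale), with tet-ZFP36L1 in red and tet-control in grey. Each point is 1 library and bars are 95% Poisson intervals of the count. CD44 stood at 570 and 528 CPM in the induced libraries, below the other 4.

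CD44 mRNA holds the AU-rich motif TATTTAT, searched on the transcript strand, in its 3' UTR. CD44-201, the coding transcript with the highest mean estimated count, carries 3 copies in 3069 bases, and ZEB1-201 carries 2 copies in 1938 bases. The sites are printed with 8 bases on each side and the motif in capitals.
CD44 chr11:35229875-35229881 (GRCh38, plus strand): ggtgaagcTATTTATctgtagta
CD44 chr11:35229893-35229899 (GRCh38, plus strand): tagtaaacTATTTATctgtgttt
CD44 chr11:35232290-35232296 (GRCh38, plus strand): tttttgtaTATTTATtgatggat
ZEB1 chr10:31528632-31528638 (GRCh38, plus strand): aacttttaTATTTATgtgtctta
ZEB1 chr10:31528661-31528667 (GRCh38, plus strand): tatttcttTATTTATtacacagt

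These letters were absent from the 3' UTRs searched for VIM (322 bases), CDH2 (1072), ZEB2 (134) and SNAI2 (1039). In each of these genes 1 transcript was read, and its other transcripts were not searched. The motif is common: 31.8% of 10716 genes held at least 1 copy. So did 54.3% of the genes with a 3' UTR within 25% of the length of CD44's, and 39.2% of those near ZEB1's. For the members without a copy, the share at their own lengths was 24.7% (SNAI2), 24.6% (CDH2), 10.03% (VIM) and 4.32% (ZEB2). Most genes with 3' UTRs of those lengths therefore lacked the motif too. The count for CD44 depends on which transcript is read. The search was first run on the coding transcript with the highest mean TPM, which for CD44 was CD44-218, a model of 2 exons, and gave 0 copies in 456 bases. The choice was changed after that result was seen. A match is a description of letters, not a site of binding.

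CD44 transcripts were compared next. The standard transcript CD44-201 had 793, 325 and 307 CPM in tet-ZFP36L1 at 0, 6 and 24 h, against 644, 661 and 674 CPM in tet-control. Of the 38 CD44 transcripts in the files, 26 have an exon in the variable region, 3 have the standard junction and 9 have neither. Transcripts with a variable-region exon held 9.63%, 12.5% and 10.7% of CD44 estimated counts in tet-ZFP36L1 at 0, 6 and 24 h, against 13.6%, 14.7% and 13.7% in tet-control. Their Wilson intervals were 9.27% to 10.01%, 11.9% to 13.2% and 10.1% to 11.3% in tet-ZFP36L1, against 13.1% to 14.02%, 14.2% to 15.2% and 13.3% to 14.2% in tet-control. The share was lower in tet-ZFP36L1 at each time, before induction as well, and in both lines it was highest at 6 h.

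The size of that share depends on the models counted. Among transcripts with both the first and the last coding exon of the standard isoform it was 2.44%, 5.31% and 2.302% in tet-ZFP36L1, against 5.74%, 7.77% and 6.82% in tet-control. With the deposited TPM it was 24.7%, 27.7% and 27.5% in tet-ZFP36L1, against 31.7%, 29.5% and 30.6% in tet-control, where the 6 h value is no longer the highest of tet-control. CD44-210 and CD44-209 were picked after their values were seen, for their 1 and 3 variable exons in coding models. CD44-210 had 27.0, 60.3 and 28.4 estimated counts per 1000 of CD44-201 at 0, 6 and 24 h in tet-ZFP36L1, against 65.5, 66.1 and 68.3 in tet-control. CD44-209 had 38.7, 63.1 and 14.8 estimated counts in tet-ZFP36L1, against 90.6, 468 and 221 in tet-control. Both were thus the lower in tet-ZFP36L1 at each time, and CD44-209 was highest at 6 h in each line. They do not stand for all variants. CD44-214, a model of 7 exons with 2 in the variable region, held the most counts of the variable class in every library, with 6.63%, 5.36% and 6.23% of CD44 counts in tet-ZFP36L1 at 0, 6 and 24 h, against 6.01%, 6.17% and 5.15% in tet-control. Its share was the higher in tet-ZFP36L1 at 0 and 24 h and the lower at 6 h.

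**Figure D2:**
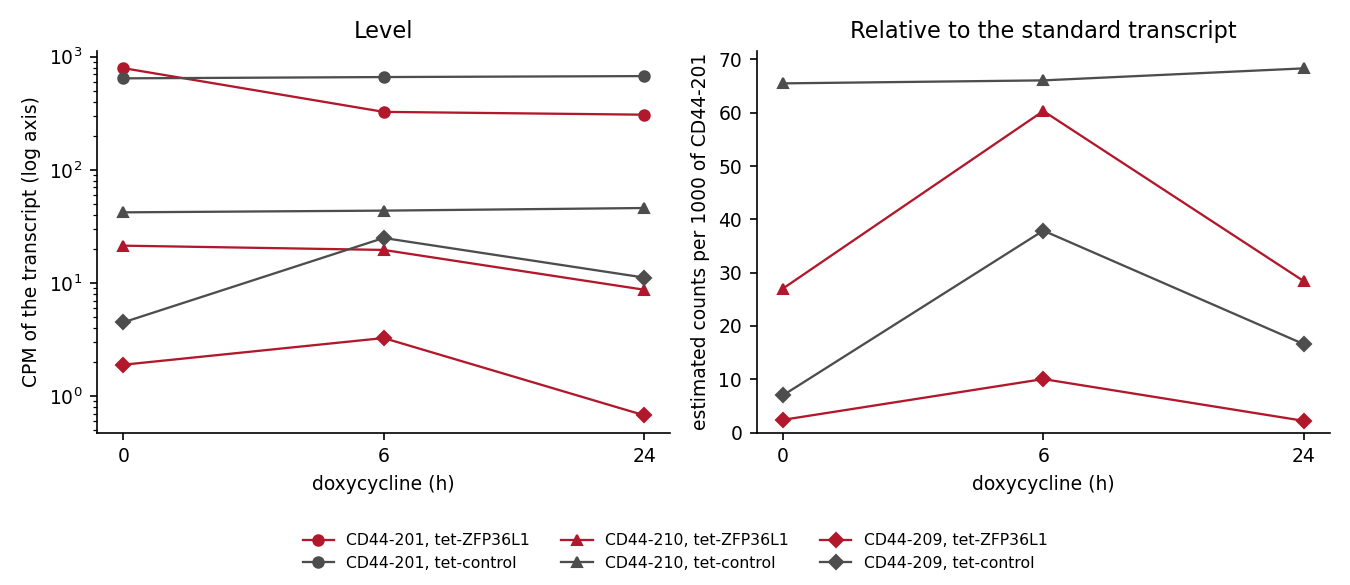
CPM of 3 CD44 transcripts on a log axis (left) and estimated counts per 1000 of CD44-201 (right) after 0, 6 and 24 h of doxycycline, with tet-ZFP36L1 in red and tet-control in grey, 1 library per point and no error bars. CD44-210 reached 60.3 per 1000 in tet-ZFP36L1 at 6 h, against 66.1 in tet-control.

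Factors known to act on CD44 splicing were listed with it. ESRP1 and ESRP2, epithelial splicing factors that favour the variable exons, were not measured, with ESRP1 at 0.674 to 1.23 CPM in tet-ZFP36L1 and 1.28 to 4.72 CPM in tet-control. Of the 15 factors 13 were measured. Of these 0 were called lower at 6 or 24 h (2.54% and 4.97% of all measured genes) and 0 higher (0.739% and 2.74%). Their median induction difference was 0.063 at 6 h and -0.35 at 24 h, beside -0.0069 and -0.019 over all measured genes. The largest at 24 h was that of the RNA helicase gene DDX5, at -0.84 (-0.90 to -0.79), and at 6 h that of MBNL1, at -0.53 (-0.63 to -0.44).

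Of the 4 cadherin members, CDH2 was the one measured. CDH2 (chromosome 18, 27950966 to 28177446, minus strand) had 160.2, 251 and 127 CPM in tet-ZFP36L1 at 0, 6 and 24 h, against 74.9, 100.004 and 80.2 CPM in tet-control. It was higher in tet-ZFP36L1 at every time, and both lines were highest at 6 h. The ratio between the lines was 2.14 at 0 h (2.01 to 2.28), 2.51 at 6 h (2.38 to 2.65) and 1.59 at 24 h (1.49 to 1.69). The induction difference was 0.23 at 6 h (0.11 to 0.35) and -0.43 at 24 h (-0.55 to -0.30), neither of them called.

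CDH1 had 8, 9 and 9 counts in tet-ZFP36L1 at 0, 6 and 24 h, against 2, 14 and 2 counts in tet-control. At 24 h the exact ratio between the lines was 4.07 (0.842 to 38.7), an interval that includes 1. The log2 difference was 0.60 (0.058 to 1.14), which excludes 0, so these few counts do not settle whether the lines differed. The exact Poisson interval of 14 counts (7.65 to 23.5) lies above that of 2 counts (0.242 to 7.22). The level in tet-control at 6 h was therefore beyond counting error of its 0 h library. CDH1 shares 7.70% of its 31-base words with other genes. CDH3 (P-cadherin) had 0 to 3 counts and CDH11, a cadherin of mesenchymal cells, had 1 to 6. TWIST1 had 0 counts in all 6 libraries, which allows up to 0.161 CPM. Of 18 other cadherins 3 were measured. CDH13, an atypical cadherin held in the membrane by a lipid anchor, had 16.6, 17.8 and 12.8 CPM in tet-ZFP36L1, against 0.199, 0.482 and 0.101 CPM in tet-control.

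VIM (chromosome 10, 17228259 to 17237593, plus strand) had 1339, 1488 and 787 CPM in tet-ZFP36L1 at 0, 6 and 24 h, against 722, 800 and 877 CPM in tet-control. It was higher in tet-ZFP36L1 at 0 and 6 h, while at 24 h the lines were near each other. The ratio between the lines was 1.85 at 0 h (1.82 to 1.89) and 0.898 at 24 h (0.879 to 0.917). The induction difference was 0.0047 at 6 h and -1.05 at 24 h (-1.09 to -1.004). The own change at 24 h was -0.77, so VIM was not called. At a 1.5-fold threshold it was called lower at 24 h, as were 14.3% of all measured genes. With plain CPM the induction difference at 24 h was -0.87 and the line difference at that time was 0.032, in place of -0.16. Of the 31-base words of VIM transcripts 24.1% are shared with other genes, the leading ones being the antisense gene VIM-AS1, with 0 to 7 counts, and AL133415.1, with 0 to 3. The labels do not say whether strand was used in counting.

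**Figure D3:**
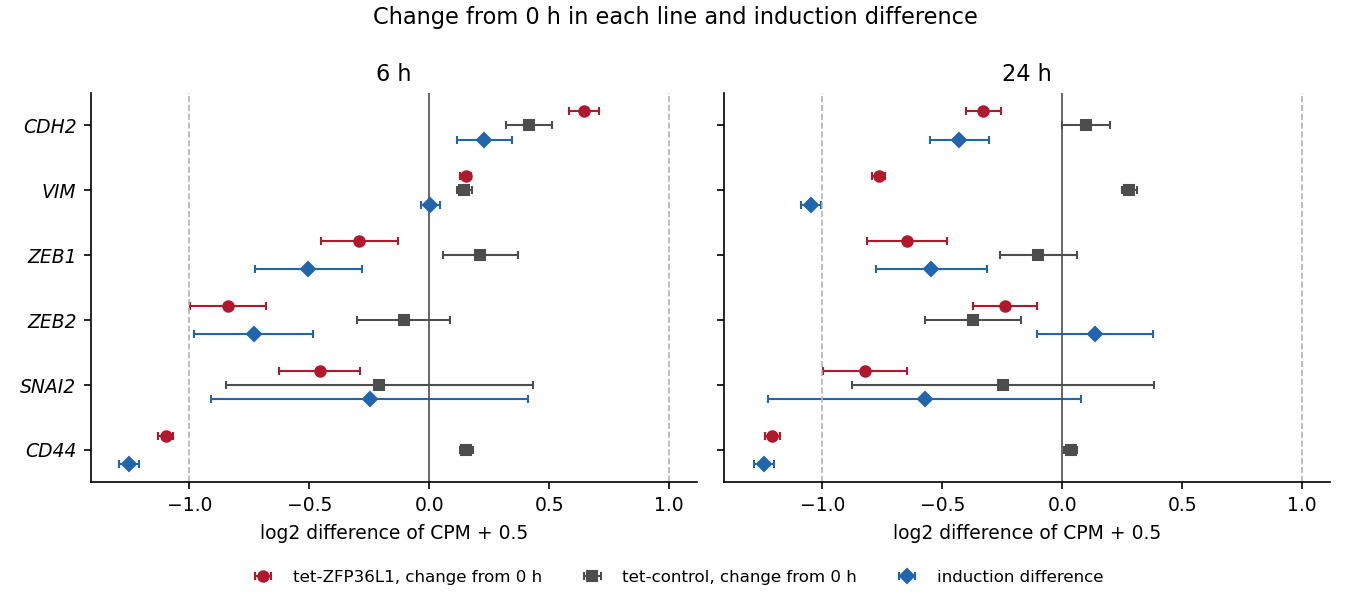
Log2 change from 0 h in tet-ZFP36L1 (red circles) and in tet-control (grey squares) and the induction difference (blue diamonds) of the 6 measured members at 6 h and 24 h, with 95% counting intervals. Dashed lines mark 1 and -1. CD44 lies beyond -1 in both its own change and its induction difference, and VIM at 24 h in the induction difference alone.

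Of the 4 EMT factors, SNAI2 and ZEB2 were higher in tet-ZFP36L1 before induction. SNAI2 (chromosome 8, 48917604 to 48921740, minus strand) had 32.9, 23.8 and 18.4 CPM in tet-ZFP36L1 at 0, 6 and 24 h, against 0.695, 0.535 and 0.506 CPM in tet-control. These are 670, 460 and 402 counts in tet-ZFP36L1, against 14, 10 and 10 counts in tet-control. No library of one line came near the other line, and the ratio at 0 h was 47.3 (28.0 to 87.1). The induction difference was -0.25 at 6 h (-0.91 to 0.41) and -0.57 at 24 h (-1.23 to 0.079), with intervals that include 0. These hold the counting error of the few tet-control counts. The own change of tet-ZFP36L1 was -0.46 at 6 h (-0.62 to -0.29) and -0.82 at 24 h (-0.996 to -0.65).

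ZEB2 (chromosome 2, 144364364 to 144524583, minus strand) had 44.6, 24.7 and 37.8 CPM in tet-ZFP36L1 at 0, 6 and 24 h, against 21.99, 20.4 and 16.9 CPM in tet-control. The lines were nearest at 6 h, where the ratio was 1.21, against 2.03 at 0 h and 2.24 at 24 h. The induction difference was -0.73 at 6 h (-0.98 to -0.48) and 0.14 at 24 h (-0.11 to 0.38). At a 1.5-fold threshold ZEB2 was called lower at 6 h, as were 8.85% of all measured genes.

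ZEB1 (chromosome 10, 31318495 to 31529814, plus strand) had 33.5, 27.3 and 21.2 CPM in tet-ZFP36L1 at 0, 6 and 24 h, against 31.1, 36.1 and 28.95 CPM in tet-control. At 0 h the ratio between the lines was 1.08 (0.967 to 1.205), an interval that includes 1. The induction difference was -0.50 at 6 h (-0.73 to -0.28) and -0.55 at 24 h (-0.78 to -0.32). With protein-coding transcripts alone it was -0.196 and -0.296. At 0 h, 3 of the 6 measured members (CDH2, ZEB2 and SNAI2) were called higher in tet-ZFP36L1 than in tet-control and 0 lower, beside 5.05% and 2.77% of all measured genes. ZEB2 passed narrowly, at a log2 difference of 1.005, and was not called with the deposited TPM (0.919) or a pseudocount of 5 (0.879). In tet-control 0 of 6 were called after doxycycline, lower or higher. The background there was 2.23% lower and 2.43% higher at 6 h, and 0.428% lower and 0.378% higher at 24 h.

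**Figure D4:**
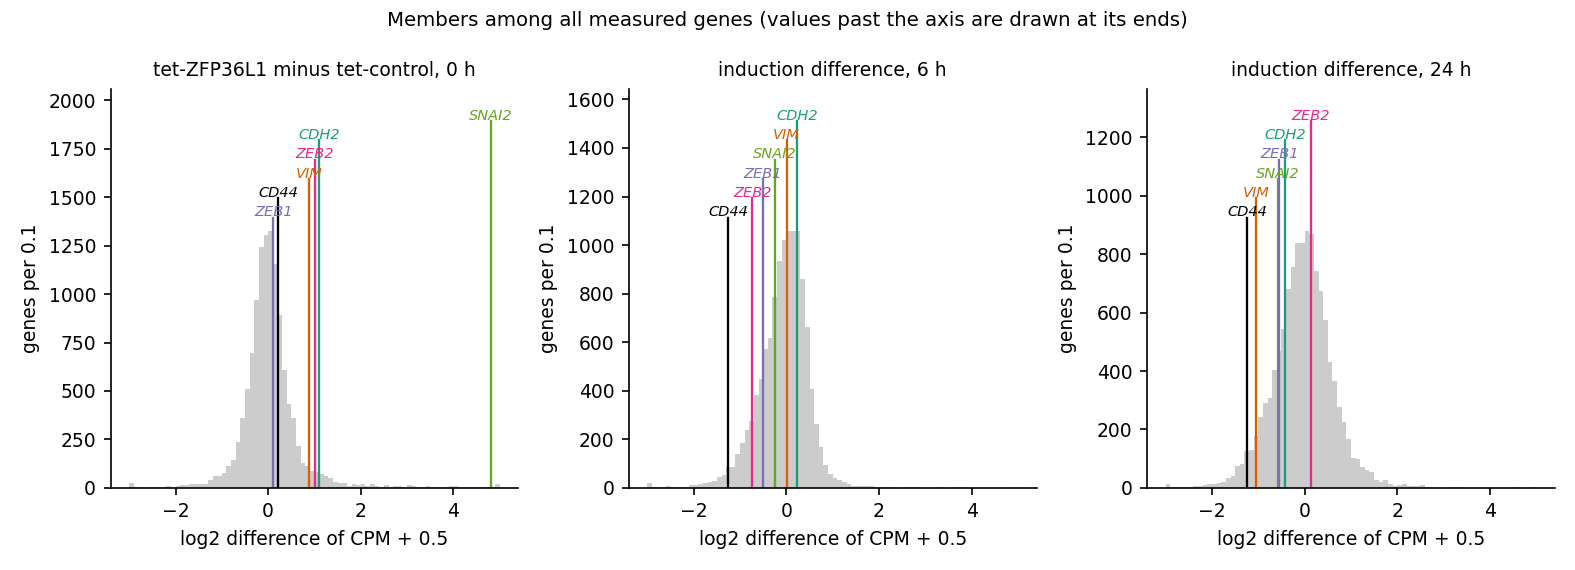
Distribution over all measured genes (grey, genes per 0.1 log2 units) of the difference between lines at 0 h and of the induction difference at 6 h and 24 h, with the 6 measured members as coloured lines. SNAI2 lies at 4.805 at 0 h, and CD44 is the lowest of the 6 at 6 h and at 24 h.

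The share of the leading transcript varied more between libraries for the ZEB genes than for VIM and CDH2. VIM-201 held 95.3% to 97.4% of VIM counts over the 6 libraries, and CDH2-202 held 69.5% to 77.2% of CDH2 counts. SNAI2-201 held 87.0%, 84.8% and 87.6% of SNAI2 counts in tet-ZFP36L1 at 0, 6 and 24 h. In tet-control it held 100%, 0% and 100%, on 14, 10 and 10 SNAI2 counts, too few for a share to be read. ZEB2-201 held 81.6%, 77.7% and 59.6% of ZEB2 counts in tet-ZFP36L1 at 0, 6 and 24 h, against 80.5%, 64.1% and 83.6% in tet-control. ZEB1-201 held 46.5%, 52.9% and 51.0% of ZEB1 counts in tet-ZFP36L1, against 52.1%, 34.0% and 44.9% in tet-control. The low value lay at 24 h in one line and at 6 h in the other for ZEB2. With the deposited TPM the induction difference of ZEB2 at 24 h was 0.65, in place of 0.14, and its own change was 0.17, in place of -0.24.

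Levels between genes were compared per length, by the deposited TPM summed per gene. For CD44 that sum depends on how reads were divided among transcripts of unlike length. CD44-218 (705 bases) had 252 TPM on 8.37% of CD44 counts at 0 h in tet-ZFP36L1. CD44-201 (4589 bases) had 233 TPM there, on 65.0% of the counts. The place of CD44 and the ratio of VIM to CD44 given here rest on that division. In tet-ZFP36L1 the order at 0 h was VIM (1026 TPM), CD44 (1011), CDH2 (67.5), SNAI2 (22.2), ZEB2 (11.6) and ZEB1 (11.1). In tet-control it was CD44 (871), VIM (525), CDH2 (29.8), ZEB1 (9.33), ZEB2 (5.92) and SNAI2 (0.448). VIM and CD44, and ZEB2 and ZEB1, were close neighbours in tet-ZFP36L1, and with 1 library each no spread tells them apart. SNAI2 took the fourth place in tet-ZFP36L1 at 0 h and the sixth in tet-control. The ratio of VIM to CD44 in TPM was 1.01, 2.17 and 1.247 at 0, 6 and 24 h in tet-ZFP36L1, against 0.603, 0.581 and 0.718 in tet-control.

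The genes whose log2 profile over the 6 libraries lay nearest to each member were found by the root-mean-square difference of centred profiles, among 11080 protein-coding genes. For CD44 the nearest was GPD2 (0.033). GPD2 had 81.6, 37.0 and 36.2 CPM in tet-ZFP36L1 at 0, 6 and 24 h, against 70.6, 76.0 and 74.0 CPM in tet-control. For ZEB2 the nearest was EPB41L4B (0.092), for VIM CD58 (0.12), for CDH2 HYI (0.13) and for SNAI2 EPHB1 (0.15).

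Genes of the same processes were taken from 10 lists. The background for each list below is the share called over all measured genes. It was 2.54% lower and 0.739% higher at 6 h, and 4.97% lower and 2.74% higher at 24 h. In the list of partners of hyaluronan and CD44, 11 of 15 genes were measured, and 1 was called lower at 6 h and 3 at 24 h, with 0 higher. HAS3, a hyaluronan synthase, had 316, 109 and 81.2 CPM in tet-ZFP36L1 at 0, 6 and 24 h, against 365, 324 and 388 CPM in tet-control. Its induction difference was -1.36 at 6 h and -2.04 at 24 h. MMP14, a membrane-bound protease that cleaves CD44, had 297, 162 and 82.1 CPM in tet-ZFP36L1, against 74.0, 73.1 and 72.5 CPM in tet-control. The list's median induction difference was -0.40 at 6 h and -0.75 at 24 h.

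Of the 26 mesenchymal effectors 15 were measured. At 6 h 3 were called higher (SPARC, TAGLN and ACTA2) and 0 lower, and at 24 h 3 were called higher (TAGLN, ACTA2 and MYL9) and 2 lower (FN1 and LOXL2). TAGLN, an actin-binding protein of smooth muscle, had 27.8, 386 and 223 CPM in tet-ZFP36L1 at 0, 6 and 24 h, against 79.1, 390 and 133 CPM in tet-control, so both lines were highest at 6 h. ACTA2, smooth muscle actin, had 1.62, 5.81 and 6.68 CPM in tet-ZFP36L1, against 2.33, 1.61 and 1.77 CPM in tet-control. The fibronectin gene FN1 had 9908, 11892 and 2657 CPM in tet-ZFP36L1 at 0, 6 and 24 h, against 382, 717 and 392 CPM in tet-control. It was higher in tet-ZFP36L1 at every time. Its induction difference was -0.64 at 6 h, where both lines rose and tet-control rose more, and -1.94 at 24 h. The list's median was 0.68 at 6 h and 0.53 at 24 h. In tet-control alone, 6 of the 15 were called higher at 6 h and 1 lower, beside 2.43% and 2.23% of all measured genes.

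Among epithelial junction genes, 16 of 24 were measured. CLDN1, a tight junction claudin, was called lower at both times, with 537, 197 and 169 CPM in tet-ZFP36L1 at 0, 6 and 24 h, against 1039, 1150 and 1079 CPM in tet-control. PKP2, a desmosome protein, was called higher at 24 h, at 8.94, 13.5 and 24.8 CPM in tet-ZFP36L1, against 19.9, 14.6 and 17.6 CPM in tet-control. The median was -0.13 at 6 h and 0.26 at 24 h. Of 12 epithelial regulators 4 were measured, and the transcription factor gene KLF4 was called higher at 24 h, with an induction difference of 1.32 (0.81 to 1.82), while 0 were called at 6 h. The other 2 genes named there were KLF5, at -0.66 at 6 h, and ELF3, at 0.98 at 24 h.

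Of 15 other EMT transcription factors 8 were measured, and SOX9 was called lower at 24 h with 0 called at 6 h. SOX9 had 97.8, 51.6 and 38.5 CPM in tet-ZFP36L1 at 0, 6 and 24 h, against 36.7, 55.5 and 40.7 CPM in tet-control. The catenins and adherens junction partners had 11 of 14 genes measured, 0 called at 6 h, and 2 called higher at 24 h, ARVCF (1.77) and NECTIN1 (1.04). Of the other cadherins CDH24 was called higher at 24 h, at 1.03. Of 10 other intermediate filaments and linkers 5 were measured, and at 24 h the synemin gene SYNM was called higher, at 4.53, and the lamin gene LMNB2 lower, at -1.07.

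Of the housekeeping genes all 14 were measured, and 0 were called at 6 h, while at 24 h PGK1 (-1.23) and TFRC (-1.14) were called lower and 0 higher. Their median induction difference was -0.09 at 6 h and -0.46 at 24 h, beside -0.56 over the 6 measured EMT members at 24 h and -0.38 at 6 h. The part of this shift, and of the library that stood apart, in the 24 h values of the members was not tested.

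**Figure D5:**
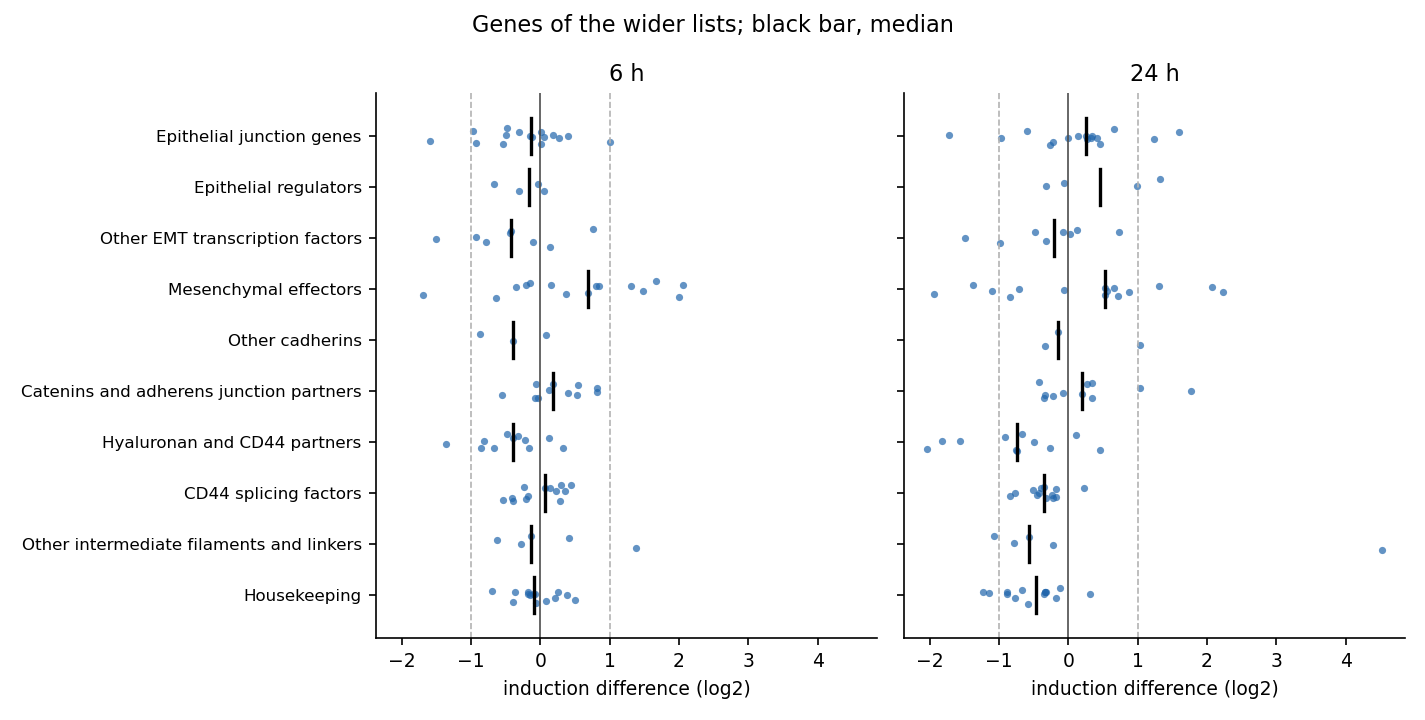
Induction difference (log2) of each measured gene of the 10 lists at 6 h and 24 h, with the median of each list as a black bar and dashed lines at 1 and -1. Hyaluronan and CD44 partners have medians of -0.40 and -0.75, and housekeeping genes of -0.09 and -0.46.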

How the data were processed

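Total RNA of 6 J82 cultures was sequenced on a BGISEQ-500 instrument (per the labels' protocols), and samples were grouped by title. Tools named in the submitters' processing notes are kallisto and DESeq2, with the build hg19, without versions. The deposited tables list 196354 transcripts with estimated counts, which need not be whole because kallisto divides reads among transcripts, and with TPM, which the authors' deposited tables scale for effective length and depth.

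Transcripts were matched by identifier to GENCODE 29 (181857 matched). Unmatched transcripts held 5.12% to 5.46% of estimated counts and were left out. Positions and sequences are from that annotation's GRCh38 build, with no coordinate converted. Per gene, estimated counts were added and rounded, which gave 19605308 to 20245037 per library. They were scaled with TMM factors (edgeR 4.0.16, R 4.3.3) over genes averaging 10 counts or more, and set on log2(CPM + 0.5), which understates changes of low genes. Measured genes averaged 50 counts or more. With 1 library per group, no count test was run. Intervals are from the delta method for log2 differences, exact binomial for ratios, exact Poisson for counts and Wilson for shares. Without molecular identifiers reads may be copies of 1 molecule, so intervals and the limit of 3 counts for a value of 0 cover counting error only.

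The members, lists and tests were chosen with earlier results of these data known. Genes named were the 10 members, the 2 measured genes with the largest absolute induction difference per list and time, the 3 nearest profiles of members with a log2 range of at least 1, and ZFP36L1. The text gives part of these, and also genes of a list that were called. The transcript read for 3' UTRs was changed after the first choice had given CD44 no copy. A search of promoters for E-boxes was also run and is not reported, because the promoter table matched some members and not CDH1.

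Calls were checked on simulated counts. The pass mark of that check was lowered for changes near the threshold after its first run. Other settings tried were size factors from DESeq2 1.42.0, unscaled CPM, TPM, other pseudocounts, minimums, thresholds and call rules, and protein-coding transcripts alone. A scaling without the tet-ZFP36L1 library at 24 h was added after seeing the data. Python 3.11.15 with numpy 2.4.6, pandas 2.3.3, scipy 1.17.1 and matplotlib 3.10.9 was used.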

Additional observations from a re-analysis of the deposited data

Results flagged for a closer look

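The 6 measured members and the 2 genes with the largest absolute induction difference per list and time were screened. In 3 of these genes the lines moved in opposite directions from 0 h by at least 1.5-fold each. The difference was not tested, since each group has 1 library. Other genes of the lists were not screened, so 3 is not a count over the lists. At 6 h COL1A1, outside the screen, went from 11.9 to 19.1 CPM in tet-ZFP36L1 and from 12.1 to 7.54 CPM in tet-control. COL1A2 went from 5.79 to 11.8 CPM in tet-ZFP36L1 and from 6.90 to 4.07 CPM in tet-control. SYNM changed by 0.68 in tet-ZFP36L1 and -0.69 in tet-control at 6 h, an induction difference of 1.37, and by 3.15 and -1.38 at 24 h, a difference of 4.53. It had 10, 21 and 181 counts in tet-ZFP36L1 at 0, 6 and 24 h, against 130, 71 and 43 counts in tet-control. SPARC changed by 1.047 in tet-ZFP36L1 and -1.02 in tet-control at 6 h, a difference of 2.07, on 54 and 116 counts in tet-ZFP36L1 and 78 and 31 in tet-control at 0 and 6 h. SOX9 changed by -0.91 in tet-ZFP36L1 and 0.59 in tet-control at 6 h, a difference of -1.51. None of the 6 measured members met this rule.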

How the results depend on the processing

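CD44 was the 1 member called at 6 h and at 24 h in the main setting, and with the deposited TPM 0 were called at either time. At 1.5-fold 2 were called at 6 h (ZEB2 and CD44) and 2 at 24 h (VIM and CD44), and with the difference alone past the threshold 2 at 24 h (VIM and CD44). With no count minimum, 1 member was called in tet-control at 6 h, CDH1, on 14 counts against 2. With a mean count of at least 10, 8 genes of the lists were called at 6 h in place of 5. The CD44 variable share in tet-ZFP36L1 at 0, 6 and 24 h was 24.7%, 27.7% and 27.5% with TPM, and 10.3%, 13.4% and 11.5% with protein-coding transcripts. Among transcripts of any type with both the first and the last coding exon it was 2.44%, 5.31% and 2.302%. In tet-control the share was 31.7%, 29.5% and 30.6% with TPM, and 14.1% and 15.7% at 0 and 6 h with protein-coding transcripts. It was 5.74%, 7.77% and 6.82% among transcripts with both of those coding exons. At 0 h 2 members (CDH2 and SNAI2) were called between lines with TPM and with a pseudocount of 5, in place of 3, since ZEB2 fell short. With protein-coding transcripts the induction difference of ZEB1 was -0.196 at 6 h and -0.296 at 24 h, in place of -0.50 and -0.55, and with plain CPM that of CDH2 at 24 h was -0.257, in place of -0.43. With TPM the median induction difference of the mesenchymal effectors at 6 h was 0.381, that of the hyaluronan and CD44 partners at 24 h -0.491 and that of the splicing factors at 24 h -0.161, in place of 0.68, -0.75 and -0.35. The cause of these shifts was not tested. No called difference of a member changed sign. Of those not called, the difference between lines changed sign for VIM at 24 h (to 0.032 with plain CPM and 0.041 with TPM) and for ZEB1 at 0 h (to -0.13 with protein-coding transcripts). Plain CPM moved the median induction difference of all measured genes at 24 h to 0.15, from -0.019. With the scaling that leaves out the tet-ZFP36L1 library at 24 h, chosen after seeing the data, CD44 was again the 1 member called at 6 h. That library cannot be left out of the 24 h comparison, which rests on it. The TATTTAT count of CD44 was 3 in the transcript with the most estimated counts and 0 in that with the highest TPM, the first choice. No paired analysis was possible because each group has 1 library, so no replicate numbers pair the lines. A fit of line with time as a block, which would take 0, 6 and 24 h as repeats although ZFP36L1 was induced at 6 and 24 h alone, was not run.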

Other observations

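The keratin genes KRT8 and KRT18, which encode the partner filaments of simple epithelia, were higher in tet-ZFP36L1 than in tet-control at all 3 times. KRT8 had 467, 753 and 647 CPM in tet-ZFP36L1 at 0, 6 and 24 h, against 258, 350.3 and 269 CPM in tet-control. KRT18 had 542, 764 and 489 CPM in tet-ZFP36L1, against 364, 454 and 366 CPM in tet-control. GATA3, a luminal transcription factor, had 10, 15 and 28 counts in tet-ZFP36L1, against 0, 2 and 1 counts in tet-control. FOXA1, another, had 381, 274 and 325 counts in tet-ZFP36L1, against 228, 153 and 185 counts in tet-control. PPARG, a nuclear receptor of the same list, went the other way, with 99, 22 and 61 counts in tet-ZFP36L1, against 334, 120 and 216 counts in tet-control. The other 7 luminal markers had 13 counts or fewer in every library. The luminal list, mostly KRT8 and KRT18, summed to 1033, 1533 and 1155 CPM in tet-ZFP36L1, against 651, 819 and 656 CPM in tet-control. The fibroblast list summed to 21.4 to 36.1 CPM in tet-ZFP36L1 and 13.5 to 22.5 CPM in tet-control, the leukocyte list to 11.7 to 30.1 and 2.23 to 8.29 CPM, and the endothelial list to 0.503 to 1.08 and 0.202 to 0.993 CPM.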
